A study of Mus musculus with 6 samples.

Results

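The fatty acid oxidation and peroxisome genes described here are 41 mouse genes chosen by symbol: enzymes that activate, import and degrade fatty acids, peroxins, which build peroxisomes, and the nuclear receptors and coactivator that act on these genes. Of the 16171 genes in the count table, 40 were members. Decr1 had no row there. Pparg had 2 counts summed over the THCaP libraries and 1 over the TH libraries and was too low to test, so 39 of 11480 tested genes were members. The choice used the symbols only, not measured values, although earlier results of these data were known when it was made.

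RNA was sequenced from Raw264.7 cells, a wild-type mouse macrophage line, on titanium with a calcium phosphate nanowire coating (THCaP, 3 libraries) and on the control surface, titanate nanowires grown by an alkaline heat step (TH, 3 libraries). The culture was the same in both groups: attachment for 12 h, then lipopolysaccharide (LPS, from the outer membrane of bacteria, an inflammatory stimulus) at 1 µg/mL for 2 h, then 1 d of culture. Every library comes from LPS-treated cells of a single line, so no value stands for unstimulated or primary macrophages. Separate cultures are not stated for the 3 libraries of a surface, so the p-values reflect only the spread between these samples, which may be technical.

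Library totals ran from 28000099 to 30317108 counts. On the first principal component of log2 expression (60.5% of the variance) the THCaP libraries lay at 5.17 to 35.9 and the TH libraries at -22.2 to -16.3, with THCaP replicate 3 nearest to TH. Of 10 macrophage markers 9 averaged at least 10 CPM (counts scaled to a common library size), and the exception, Mertk, was at 0.364 CPM. The 10 markers summed to 3149 to 3382 CPM in THCaP and 2869 to 3394 CPM in TH libraries. Adipocyte markers, which a lipid gene list could pick up, summed to at most 0.278 CPM in THCaP and 0.495 CPM in TH libraries. Among the 4 adipocyte markers with a row, 2 were at 0 in every library, as were 3 of the 5 hepatocyte markers. Stromal, endothelial, lymphoid and neutrophil markers summed to at most 4.14 CPM in any THCaP and 5.57 CPM in any TH library.

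Fatty acids are joined to coenzyme A, carried into mitochondria as carnitine esters and shortened in a repeated cycle of oxidation, hydration, oxidation and thiolysis that feeds electrons to the respiratory chain. Peroxisomes shorten very long and branched chains and import their enzymes folded, through receptors that recognise short targeting signals. In macrophages, LPS is known to favour glycolysis, while fatty acid oxidation is linked to alternative activation, and nuclear receptors of the PPAR family raise many genes of both organelles.

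Few of these genes differed between the surfaces. On THCaP, Phyh and Hadh rose and Pex5 fell. The other 36 tested members did not pass the threshold (edgeR quasi-likelihood F test, Benjamini-Hochberg adjusted p under 0.05 over all tested genes). The 3 called members are 7.69% of those tested, beside 23.6% called over all tested genes. By direction they were 2 higher (11.6% of all tested genes) and 1 lower (12.0%). At an unadjusted p under 0.05 the count was 11 of 39 members (28.2%), beside 39.1% of all tested genes. The median log2 fold change, THCaP over TH, was 0.07 for the members and 0.0064 for all tested genes, and the median absolute log2 fold change was 0.11 for the members and 0.21 for all tested genes. Whether members differ from other genes in these respects was not tested.

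Member counts were summed and divided by the library's total over tested genes times its TMM factor, so the results are not plain shares. This gave 0.264%, 0.265% and 0.261% in THCaP replicates 1 to 3 and 0.257%, 0.253% and 0.248% in TH replicates 1 to 3. Thus the set as a whole was slightly higher in every THCaP library than in any TH library, though its members went both ways: 27 log2 fold changes were positive and 12 negative. In 15 of 39 members (38.5%) the 3 THCaP libraries and the 3 TH libraries were fully separate, 11 of them higher and 4 lower on THCaP, beside 43.4% of all tested genes (22.1% higher and 21.3% lower). For 35 of the 39 the 95% interval of the fold change lay within 1.5-fold in either direction, as it did for 7073 of all 11480 tested genes. Of the 36 members that were not called, Etfb, whose interval reached 1.52-fold higher, and Pex11a, whose interval reached 0.65 of the TH level, were the exceptions.

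**Figure D1:**
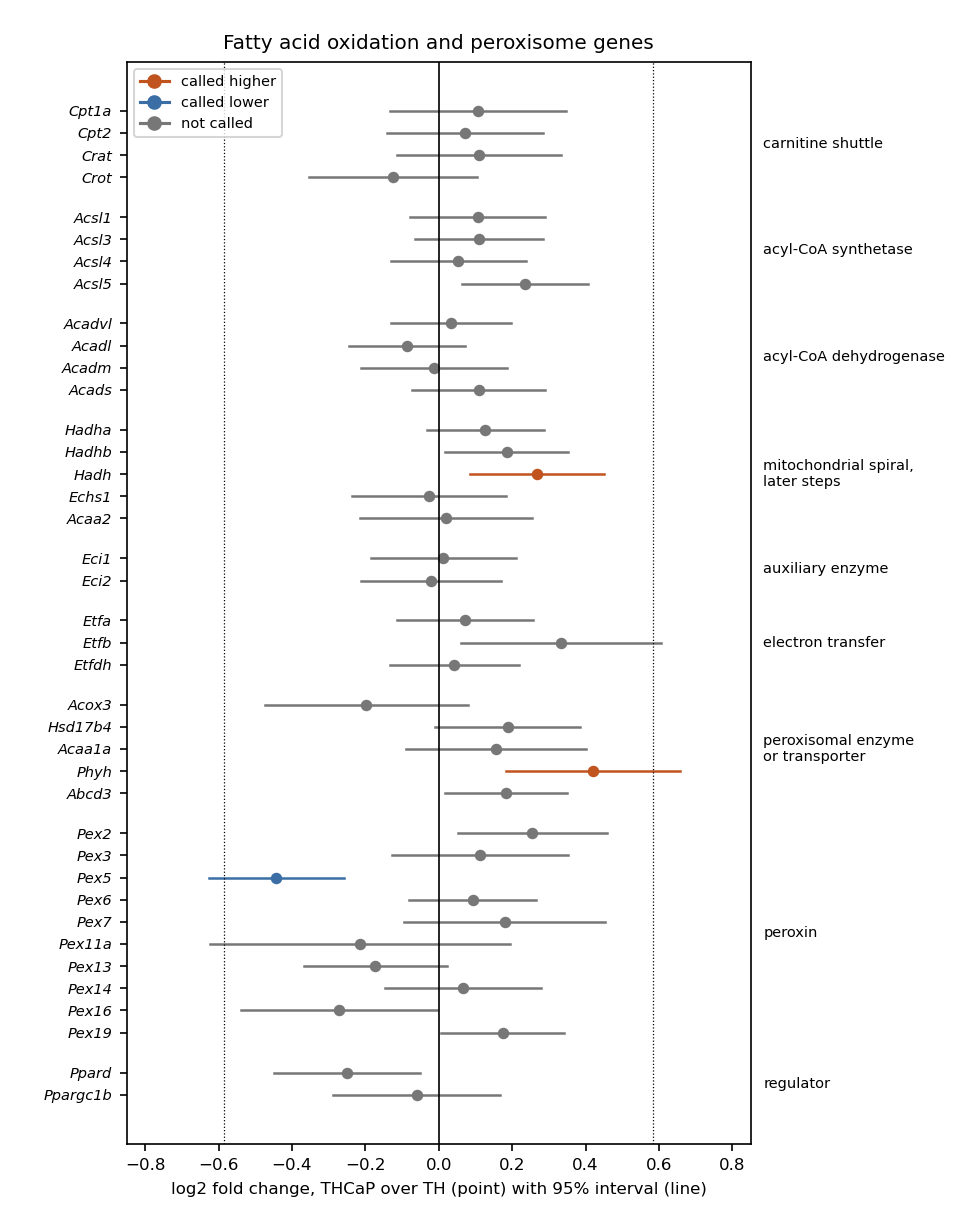
Log2 fold change, THCaP over TH (x axis), of the 39 tested members grouped by role, with lines for 95% intervals and dotted lines at a 1.5-fold change. Pex5 at -0.44 lies lowest and Phyh at 0.42 highest, and most intervals cross 0.

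The number of called members depended on single libraries. Without THCaP replicate 1, TH replicate 2 or TH replicate 3 it was 0 higher and 1 lower, and without THCaP replicate 2 it was 1 higher and 1 lower. It was 4 higher and 3 lower without THCaP replicate 3 and 4 higher and 1 lower without TH replicate 1. The share of all tested genes called moved as well, from 6.53% without THCaP replicate 1 to 36.0% without THCaP replicate 3. Scaled by library totals rather than by TMM factors, 8 members were higher and 1 lower (23.1%, beside 25.8% of all tested genes), and over all tested genes 1904 were higher and 1063 lower, in place of 1333 and 1376. Of the 39 members, 27 were called under none of the 16 alternatives and only Pex5 was called under all 16.

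Pex5, the receptor that carries enzymes with a C-terminal targeting signal into peroxisomes, had 60.9, 55.5 and 65.4 CPM in THCaP replicates 1 to 3, against 82.8, 81.4 and 82.7 CPM in TH replicates 1 to 3. All THCaP libraries lay well below all TH libraries, and the TH libraries barely differed from one another. Its mean was 60.6 ± 4.94 CPM on THCaP and 82.3 ± 0.769 CPM on TH (SD, n = 3 each), a log2 fold change of -0.44 (SE 0.08, 95% interval -0.63 to -0.26, edgeR adjusted p = 0.00849), or 1.36-fold lower. Over the 16 alternatives the log2 fold change ran from -0.50 to -0.37 and the adjusted p from 9.47e-05 to 0.0458. The highest value was reached without THCaP replicate 1. Pex5 lies on chromosome 6 at 124396816 to 124415067 on the minus strand of GRCm38, is protein coding, and shares no exon bases with another gene in GENCODE vM21.

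Phyh, phytanoyl-CoA hydroxylase, begins the alpha-oxidation of branched phytanic acid in peroxisomes. It had 40.2, 43.2 and 40.3 CPM in THCaP replicates 1 to 3, against 33.5, 32.7 and 26.3 CPM in TH replicates 1 to 3. The surfaces did not overlap, and TH replicate 3 was the lowest library. Phyh averaged 41.2 ± 1.70 CPM on THCaP and 30.8 ± 3.90 CPM on TH (SD, n = 3 each), a 1.34-fold increase (log2 fold change 0.42, SE 0.11) with an edgeR adjusted p of 0.0224. The call was lost without THCaP replicate 1 (adjusted p = 0.0720), TH replicate 2 (0.0595) or TH replicate 3 (0.0882), with log2 fold changes of 0.32 to 0.48 over the omissions of single libraries. The gene lies on chromosome 2 at 4919019 to 4938730, plus strand.

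Hadh encodes the mitochondrial enzyme that performs the second oxidation on medium and short chains. It had 60.3, 60.6 and 61.3 CPM in THCaP replicates 1 to 3, against 52.8, 52.2 and 46.4 CPM in TH replicates 1 to 3. THCaP libraries lay above TH libraries and close together. The mean was 60.7 ± 0.491 CPM on THCaP and 50.5 ± 3.55 CPM on TH (SD, n = 3 each), a 1.203-fold increase (log2 fold change 0.27, SE 0.08) with an edgeR adjusted p of 0.0418. The call was lost without THCaP replicate 1 (0.140), THCaP replicate 2 (0.0675), TH replicate 2 (0.104) or TH replicate 3 (0.181), and with the replicate number as a block (0.0660). Hadh lies on chromosome 3 at 131233419 to 131272101, minus strand.

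**Figure D2:**
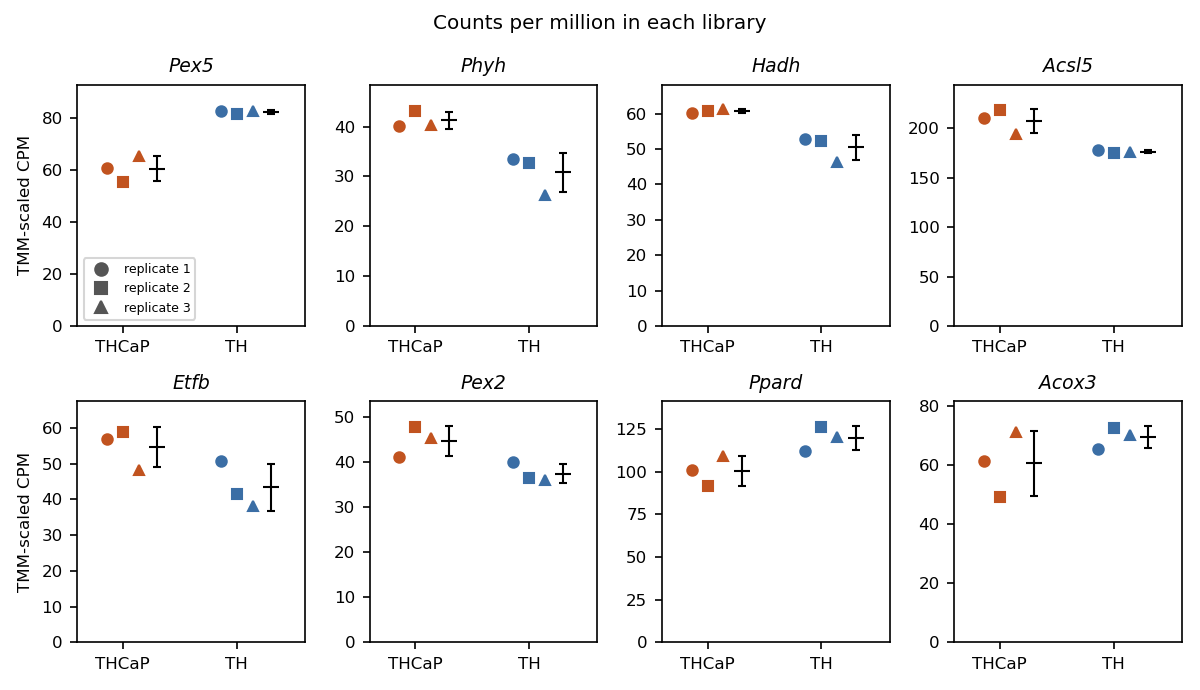
TMM-scaled CPM (y axis, from 0) of 8 members in each library, with the mean ± SD of each surface in black. Pex5 lies at 55.5 to 65.4 on THCaP and 81.4 to 82.8 on TH, whereas in Etfb and Acox3 the libraries of the surfaces overlap.

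The sequences before the starts of the 3 called genes, and the gap between the divergent genes Hadha and Hadhb, are shown because these are the promoters of the members that were called and of the pair of subunits whose genes share a promoter region. They are RefSeq sequences on GRCm38.p6. Those of the 3 called genes run 5′ to 3′ on the strand of the gene and end 1 base before its RefSeq start. The gap is given on the plus strand. It is bounded by the ends of Hadha (30155162) and Hadhb (30155248) in GENCODE vM21, which differ from their RefSeq starts. Capitals mark CCAAT and GGGCGG, each on either strand, which did not overlap each other in these windows. AGGTCA, the core of nuclear receptor binding sites, was searched too and was absent from all 4.
Pex5, chr6:124415068-124415317, minus strand: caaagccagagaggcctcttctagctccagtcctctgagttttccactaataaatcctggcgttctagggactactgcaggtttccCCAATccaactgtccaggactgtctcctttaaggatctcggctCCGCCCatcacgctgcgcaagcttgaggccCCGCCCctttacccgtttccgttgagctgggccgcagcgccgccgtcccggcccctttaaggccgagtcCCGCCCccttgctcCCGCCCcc
Phyh, chr2:4918746-4918995, plus strand: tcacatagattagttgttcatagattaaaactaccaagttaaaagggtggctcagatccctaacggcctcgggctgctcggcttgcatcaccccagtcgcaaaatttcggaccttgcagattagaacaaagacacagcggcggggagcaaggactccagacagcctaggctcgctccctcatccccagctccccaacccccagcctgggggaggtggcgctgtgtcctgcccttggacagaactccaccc
Hadh, chr3:131272102-131272351, minus strand: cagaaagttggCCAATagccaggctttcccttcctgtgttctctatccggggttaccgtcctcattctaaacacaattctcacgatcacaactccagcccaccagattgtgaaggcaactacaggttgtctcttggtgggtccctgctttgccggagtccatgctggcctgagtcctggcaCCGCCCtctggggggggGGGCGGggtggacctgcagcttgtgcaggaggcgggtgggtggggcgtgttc
Hadha and Hadhb, chr5:30155163-30155247, plus strand: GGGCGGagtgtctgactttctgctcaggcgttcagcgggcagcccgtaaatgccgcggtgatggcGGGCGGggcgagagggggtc

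Of the sequences shown, that of Pex5 held 4 GGGCGG and 1 CCAAT, that of Hadh 2 and 1, the gap of 85 bases 2 and 0, and that of Phyh neither. RefSeq windows of 300 bases (250 before and 50 after the start) were at hand for 34 members, 41 windows in all. Those not listed were Acaa2, Crat, Decr1, Hsd17b4, Pex19, Pex2 and Ppargc1b. In these longer windows Hadh held 4 GGGCGG and 1 CCAAT, as did Pex5 at the start shown. Pex5 also had windows at other starts, not shown. That at chr6:124414814-124415113 held 3 GGGCGG and 1 CCAAT, and that at chr6:124415806-124416105 held neither. GGGCGG was found in 29 of the 41 windows (70.7%), beside 35.7% of all 32851 windows in the table, and CCAAT in 18 (43.9%), beside 37.4%. All windows cover 27025 genes, against 11480 tested here, so they include many genes that were not tested. A comparison with tested genes only was not made. AGGTCA was found in 7 (17.1%), beside 16.3%. Phyh was among them, with its match 36 bases past the start and so beyond the sequence shown. PPARs are known to bind AGGTCA repeated after a spacer of 1 base. No member window held this repeat exactly, and 13 of all windows did (0.0396%). At so low a share its absence from 41 windows tells nothing about the members. With up to 2 letters different it was found in 2 member windows (4.88%), beside 3.86% of all. These were Echs1 and Etfa, shown with the matching letters in capitals.
Echs1, chr7:140116492-140116504, on the strand of the gene: AGGTCAcgGGTCc
Etfa, chr9:55512308-55512320, on the opposite strand to the gene: AGGgCAaAGGTaA
A match of letters is not evidence of binding, and neither gene was called: the log2 fold change was -0.03 (SE 0.09) for Echs1 and 0.07 (SE 0.08) for Etfa.

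No gene of fatty acid activation passed the threshold. Of the 4 acyl-CoA synthetases, which activate long-chain fatty acids, none was called (edgeR adjusted p under 0.05), although all 4 log2 fold changes were positive (0.05 to 0.24). Acsl5 was nearest to the threshold, with 210.2, 218 and 194 CPM in THCaP replicates 1 to 3, against 178, 175 and 176 CPM in TH replicates 1 to 3. Its libraries did not overlap (log2 fold change 0.24, SE 0.08, edgeR adjusted p = 0.0506), and it was called in 7 of 16 alternatives, among them the omission of THCaP replicate 3 (0.018). Acsl1 and Acsl3 were also non-overlapping, at 47.9 to 51.2 and 78.8 to 85.8 CPM on THCaP and 42.7 to 47.8 and 71.7 to 78.2 CPM on TH, with a log2 fold change of 0.11 (SE 0.08) each. Acsl4, which prefers arachidonic acid, overlapped.

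In the carnitine shuttle 0 of 4 genes were called and in none were the libraries of the surfaces separate. Cpt1a, the rate-limiting transferase of the outer mitochondrial membrane, had 64.4, 55.0 and 71.7 CPM in THCaP replicates 1 to 3, against 55.1, 59.1 and 63.3 CPM in TH replicates 1 to 3. The THCaP libraries spanned the whole range of the TH libraries (log2 fold change 0.11, SE 0.11, 95% interval -0.13 to 0.35). Cpt2, which returns the acyl group to coenzyme A inside the mitochondrion, averaged 32.3 ± 0.907 CPM on THCaP and 30.7 ± 2.998 CPM on TH (SD, n = 3 each). Crat, which makes short-chain acylcarnitines, and the peroxisomal Crot had log2 fold changes of 0.11 (SE 0.10) and -0.12 (SE 0.10).

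Of the 14 tested genes of the mitochondrial cycle and its electron transfer only Hadh was called (median log2 fold change 0.04). The acyl-CoA dehydrogenases perform the first oxidation on chains of decreasing length, from Acadvl through Acadl and Acadm to Acads, and their log2 fold changes were 0.03, -0.09, -0.01 and 0.11 (SE 0.07 to 0.09). None was called by edgeR, and the intervals were narrow: that of Acadvl ran from -0.13 to 0.20. The sign for Acadm, and for the later enzymes Echs1 and Eci2, turned positive when scaled by library totals (0.039, 0.025 and 0.031). Acadl had 157, 151 and 151 CPM in THCaP replicates 1 to 3, against 164, 159.8 and 165 CPM in TH replicates 1 to 3, so its libraries were separate although the difference was small (edgeR adjusted p = 0.389). Acadvl shares 42.9% of its exon bases with Dvl2 on the opposite strand, and the strand setting of the counting is not given in the sources used here. In all, 17 of the 41 members share exon bases with another annotated gene.

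Hadha and Hadhb, the subunits of the trifunctional protein that performs the later steps on long chains, had similar differences. Hadha had 156, 155 and 151 CPM in THCaP replicates 1 to 3, against 144, 138 and 141 CPM in TH replicates 1 to 3. Hadhb had 81.7, 81.7 and 75 CPM in THCaP replicates 1 to 3, against 68.2, 71.0 and 70.6 CPM in TH replicates 1 to 3. In both genes every THCaP library exceeded every TH library, but neither passed the threshold (log2 fold change 0.13, SE 0.07, edgeR adjusted p = 0.208, and 0.18, SE 0.08, edgeR adjusted p = 0.0995). Hadhb was called in 3 of 16 alternatives, those with library totals and with filtered FPKM. Echs1, the hydratase for short chains, and Acaa2, the thiolase, overlapped fully between the surfaces, with log2 fold changes of -0.03 (SE 0.09) and 0.02 (SE 0.10). The isomerases Eci1 and Eci2, which shift double bonds of unsaturated chains, stood at 24.9 ± 1.36 and 49.98 ± 3.50 CPM on THCaP and 24.6 ± 0.564 and 50.7 ± 2.09 CPM on TH (SD, n = 3 each).

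Electrons from the dehydrogenases pass to the electron transfer flavoprotein, a dimer of Etfa and Etfb, and from there through Etfdh to ubiquinone. Etfb had 56.9, 58.7 and 48.3 CPM in THCaP replicates 1 to 3, against 50.7, 41.4 and 38.0 CPM in TH replicates 1 to 3. TH replicate 1 lay above THCaP replicate 3, so the surfaces overlapped (log2 fold change 0.33, SE 0.12, edgeR adjusted p = 0.0720). Etfb was called in 7 of 16 alternatives, among them the omission of TH replicate 1 (0.0298) and of THCaP replicate 3 (0.0194) and the replicate block (0.0289). Of its exon bases 53.0% are shared with Gm45233 on the same strand, so its counts depend on how shared reads were assigned. Its partner Etfa and the oxidoreductase Etfdh had log2 fold changes of 0.07 (SE 0.08) and 0.04 (SE 0.08).

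**Figure D3:**
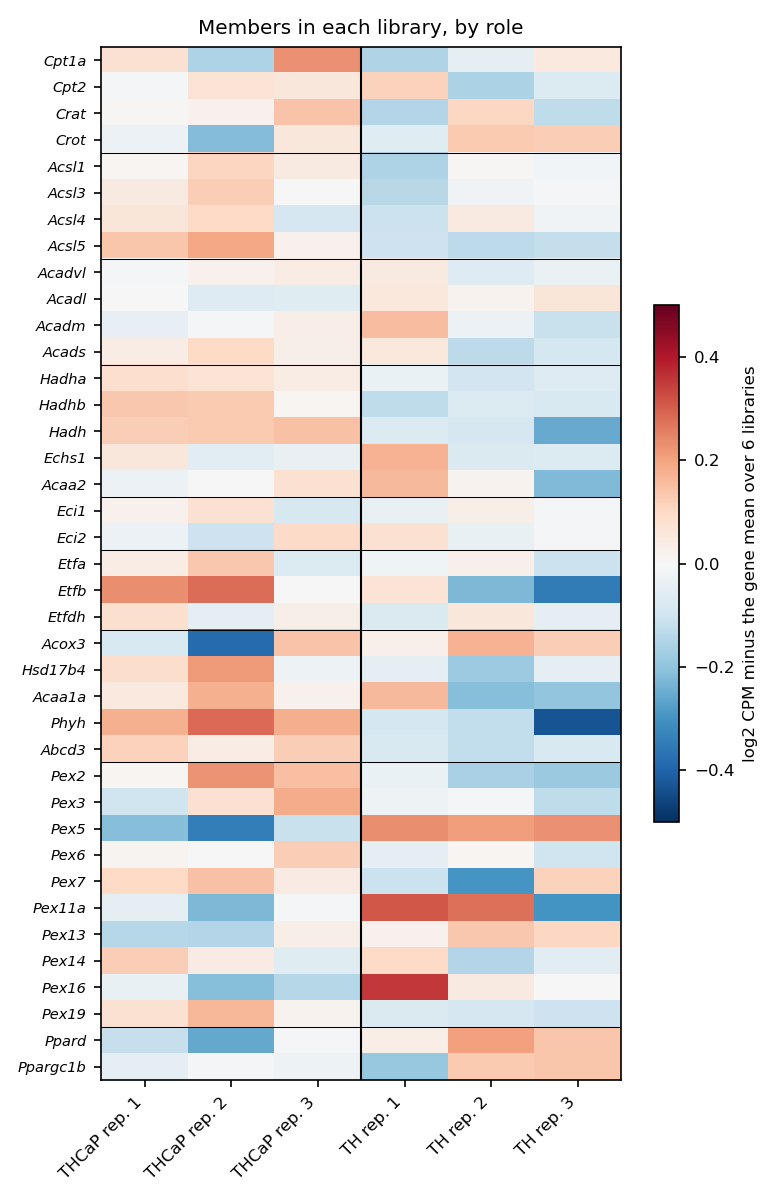
Log2 CPM of each tested member (rows, by role) in each library (columns) after subtraction of the gene's mean over 6 libraries, on a colour scale from -0.5 to 0.5. Pex5 is low in the 3 THCaP libraries and high in the 3 TH libraries, and most other rows stay pale.

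Among the peroxisomal enzymes and transporter, Phyh was called and 4 were not. Abcd3, a membrane transporter of acyl-CoA, had 61.2, 58.0 and 61.5 CPM in THCaP replicates 1 to 3, against 53.6, 51.9 and 53.6 CPM in TH replicates 1 to 3. These libraries were separate (log2 fold change 0.18, SE 0.07, edgeR adjusted p = 0.0978). Hsd17b4, the bifunctional enzyme of the peroxisomal cycle, was also non-overlapping, at 60.2 to 71.0 CPM on THCaP and 53.9 to 59.2 CPM on TH (0.19, SE 0.09, edgeR adjusted p = 0.146). Acaa1a, the peroxisomal thiolase, had 142, 155 and 139 CPM in THCaP replicates 1 to 3, against 153, 119 and 119.6 CPM in TH replicates 1 to 3. TH replicate 1 alone reached the THCaP range, and without it Acaa1a was called (log2 fold change 0.29, edgeR adjusted p = 0.0371, in place of 0.16 and 0.315). That was its only call in 16 alternatives. Without TH replicate 2 the log2 fold change was 0.09 (edgeR adjusted p = 0.66), and without TH replicate 3 it was 0.10 (0.65). Acaa1a has a near-identical paralogue, Acaa1b, and how reads were split between them is not known.

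Acox3, an oxidase of branched chains, varied widely between THCaP libraries. It had 61.3, 49.4 and 71.2 CPM in THCaP replicates 1 to 3, against 65.7, 72.8 and 70.2 CPM in TH replicates 1 to 3. THCaP replicate 3 lay among the TH libraries, and the gene was not called (log2 fold change -0.20, SE 0.12, edgeR adjusted p = 0.260). Without that library it was called (-0.33, edgeR adjusted p = 0.0328), the only call in 16 alternatives. Without THCaP replicate 2, the lowest library, the log2 fold change was -0.07 (edgeR adjusted p = 0.658). THCaP replicate 3 is the library nearest to TH over all genes as well.

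Of 10 peroxins only Pex5 passed the threshold. Pex7, the receptor for the N-terminal targeting signal, had 16.8, 17.4 and 16.1 CPM in THCaP replicates 1 to 3, against 14.6, 12.8 and 17.0 CPM in TH replicates 1 to 3, with overlap (log2 fold change of 0.18 with SE 0.12, edgeR adjusted p = 0.299). The docking proteins Pex14 and Pex13, to which loaded receptors bind at the membrane, had log2 fold changes of 0.07 (SE 0.10) and -0.17 (SE 0.09), and 28.3% of the exon bases of Pex14 are shared with the antisense gene Gm17029. Pex2, a subunit of the ubiquitin ligase that marks Pex5 for recycling, had 41, 47.6 and 45.2 CPM in THCaP replicates 1 to 3, against 39.9, 36.4 and 35.9 CPM in TH replicates 1 to 3. Its libraries did not overlap, but it was not called (0.26, SE 0.09, edgeR adjusted p = 0.0661). Pex6, an ATPase that pulls ubiquitinated Pex5 back out of the membrane, averaged 69.5 ± 3.36 CPM on THCaP and 65.2 ± 2.42 CPM on TH (SD, n = 3 each; log2 fold change 0.09, SE 0.08).

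Among peroxins that insert membrane proteins the differences had both signs. Pex19, the cytosolic chaperone for these proteins, had 84.3, 89.7 and 81.0 CPM in THCaP replicates 1 to 3, against 76.0, 75.6 and 74.5 CPM in TH replicates 1 to 3 (log2 fold change 0.17, SE 0.07, edgeR adjusted p = 0.114). Pex16 had 18.6, 16.5 and 17.3 CPM in THCaP replicates 1 to 3, against 24.5, 19.8 and 19.1 CPM in TH replicates 1 to 3 (-0.27, SE 0.12, edgeR adjusted p = 0.122). In neither gene did the surfaces overlap, with Pex19 higher and Pex16 lower on THCaP, and neither was called. Pex3, the membrane anchor of Pex19, had a log2 fold change of 0.11 (SE 0.11). Pex11a, which promotes peroxisome division, had the lowest level of the tested members, at 6.12 ± 0.472 CPM on THCaP and 7.09 ± 1.56 CPM on TH (SD, n = 3 each), and the widest interval (-0.62 to 0.19).

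Of the regulators, Pparg was close to absent: its 2 counts over the THCaP libraries and 1 over the TH libraries lie below 3 counts, the limit that a count of 0 allows in 1 library. Ppard, the PPAR that these cells did express, had 101, 91.7 and 109 CPM in THCaP replicates 1 to 3, against 112, 126 and 121 CPM in TH replicates 1 to 3. Each THCaP library lay below each TH library, but the difference was not called (log2 fold change -0.25, SE 0.09, edgeR adjusted p = 0.0669). It was called without THCaP replicate 3 (adjusted p = 0.0220) and by DESeq2 (0.0459). The coactivator Ppargc1b averaged 40.2 ± 0.524 CPM on THCaP and 41.9 ± 5.22 CPM on TH (SD, n = 3 each; log2 fold change -0.06, SE 0.10). In a bulk sample, fewer cells of a kind and less RNA per cell cannot be told apart, for these genes as for all others.

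Levels can be compared between genes per length, in the deposited FPKM (fragment counts divided by the gene's length and its library's total). The order from the top was Acadl, with 80.1 ± 2.09 FPKM on THCaP and 82.0 ± 1.19 FPKM on TH, then Acaa1a, with 74.5 ± 4.17 FPKM on THCaP and 64.5 ± 10.1 FPKM on TH, and Acsl5, with 62.8 ± 3.67 FPKM on THCaP and 51.4 ± 0.640 FPKM on TH (SD, n = 3 each). Hadha (57.8 ± 0.922 FPKM on THCaP, 51.0 ± 1.26 FPKM on TH) and Etfb (61.6 ± 6.19 FPKM on THCaP, 47.2 ± 7.41 FPKM on TH) followed, and the FPKM ranges of these last neighbours overlap. Then came a gap, with Acadvl next at 36.0 ± 0.526 FPKM on THCaP and 33.9 ± 1.47 FPKM on TH. At the bottom were Crat, Ppargc1b and Pex11a, the last with 2.67 ± 0.212 FPKM on THCaP and 2.98 ± 0.670 FPKM on TH. The carnitine transferase Cpt1a stood at 12.9 ± 1.72 FPKM on THCaP and 11.5 ± 0.723 FPKM on TH, far below Acadl.

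The order depends on the gene lengths the authors used. For Etfa that length was 9685 bases, against 1835 bases of merged exons in GENCODE vM21, and for Pex2 and Ppargc1b it was also more than 2 times the merged exons, so their FPKM are low for their counts. For 8 members it was under 0.5 times the merged exons, so by that measure their FPKM are high for their counts. Among these were Acaa1a (1989 against 4414 bases) and Hadha (2716 against 8730 bases). The order at the top therefore holds only for the lengths used. Fold changes of a gene between surfaces are not touched by this.

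**Figure D4:**
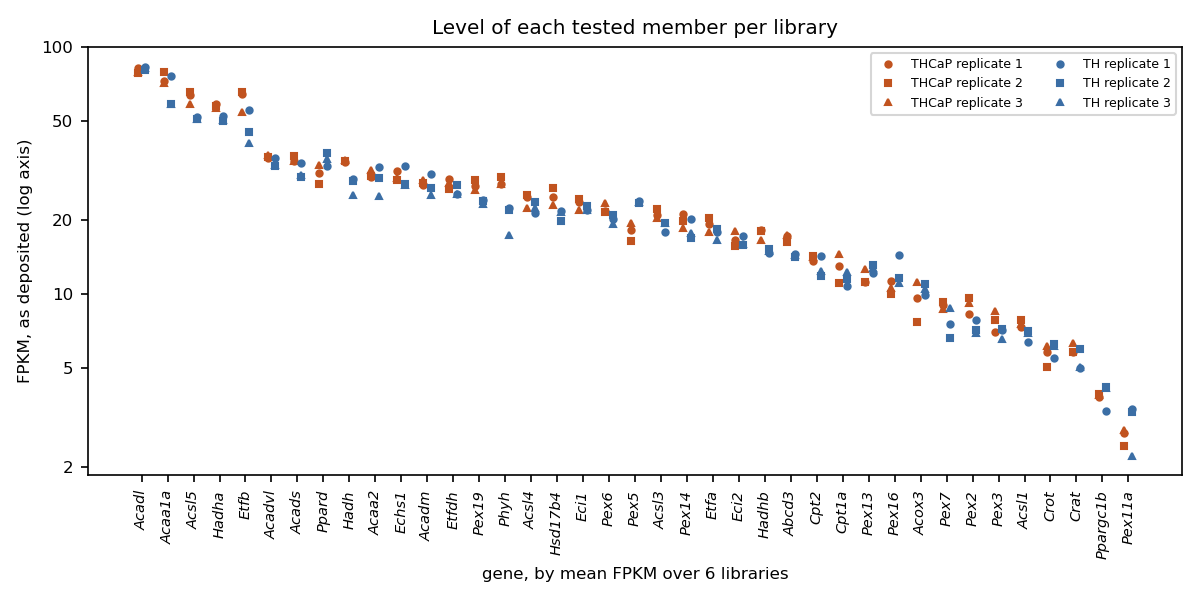
Deposited FPKM (y axis, log scale) of the 39 tested members in each library, ordered by their mean over 6 libraries. Levels run from about 81.0 for Acadl to 2.82 for Pex11a, and for most genes the marks of the surfaces lie together.

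Other genes of the same pathways were counted from lists chosen by function. Of 31 further tested genes linked to fatty acid, ketone or amino acid oxidation, 7 rose and 3 fell (32.3%, beside 23.6% of all tested genes). Their median log2 fold change was 0.20. Fewer were called without THCaP replicate 1 (1 higher, 0 lower), THCaP replicate 2 (2 and 1), TH replicate 1 (4 and 0), TH replicate 2 or TH replicate 3 (0 and 0 each). Those named by a rule of size included Ivd, which oxidises a leucine product (1.52-fold higher, log2 fold change 0.61, SE 0.13), Gcdh, which oxidises a lysine product (0.63, SE 0.18), the coenzyme A hydrolase Nudt19 (0.52, SE 0.13) and Mmut, which handles propionate (0.36, SE 0.10). Echdc3, a hydratase-like protein (-0.66, SE 0.18), and Mtln, a small membrane protein linked to fatty acid oxidation (-0.42, SE 0.12), fell. Ivd, Gcdh and Mmut act on amino acid or propionate breakdown rather than on the fatty acid cycle itself.

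Of 38 tested further peroxisome genes, 5 rose and 2 fell (18.4%), with a median of 0.05. Leaving out THCaP replicate 1, TH replicate 2 or TH replicate 3 gave 0 higher and 1 lower, THCaP replicate 2 gave 2 and 2, and THCaP replicate 3 gave 5 and 5. Prdx5, a peroxidase found in peroxisomes and mitochondria, fell by 0.46 on the log2 scale (SE 0.09). Catalase, Cat, which breaks down peroxisomal hydrogen peroxide, rose to 114 ± 4.54 CPM on THCaP, against 90.7 ± 3.23 CPM on TH (SD, n = 3 each). Its log2 fold change was 0.33 (SE 0.07, edgeR adjusted p = 0.0164). The reductase Decr2 (0.44, SE 0.13) and Tysnd1, the protease that trims imported enzymes (0.48, SE 0.13), rose.

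Of 31 tested PPAR partners and genes known as PPAR targets, 3 rose and 4 fell (22.6%), with a median of 0.03. Leaving out THCaP replicate 1 gave 1 higher and 1 lower, THCaP replicate 2 gave 1 and 4, and THCaP replicate 3 gave 5 and 5. Leaving out TH replicate 1 gave 2 and 6, and TH replicate 2 or TH replicate 3 gave 1 and 2. The fatty acid translocase Cd36 rose to 170.6 ± 41.1 CPM on THCaP, against 85.8 ± 5.04 CPM on TH (SD, n = 3 each). Its log2 fold change of 0.99 (SE 0.15) had an edgeR adjusted p of 0.00488. Pnpla2, the lipase of lipid droplets (-0.52, SE 0.10), its inhibitor Hilpda (-0.60, SE 0.14), the droplet coat protein Plin3 (-0.55, SE 0.11) and the cholesterol exporter Abcg1 (-0.37, SE 0.09) fell. Ppara had no count in any library, and Ppargc1a had 1 count over the THCaP and 2 over the TH libraries.

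Of these 15 named genes outside the members, Prdx5, Cd36 and Pnpla2 were called under all 16 alternatives. The other 12 lost the call in 2 to 6 of them. With unfiltered log2(FPKM + 1) it was lost in 10 of the 15. Without THCaP replicate 1 the call was lost in 11 of the 15, without TH replicate 2 in 11 and without TH replicate 3 in 11. It was lost in 4 without THCaP replicate 2 (Gcdh, Mtln, Mmut and Tysnd1), in 3 without TH replicate 1 (Echdc3, Gcdh and Mtln) and in 1 without THCaP replicate 3 (Decr2).

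**Figure D5:**
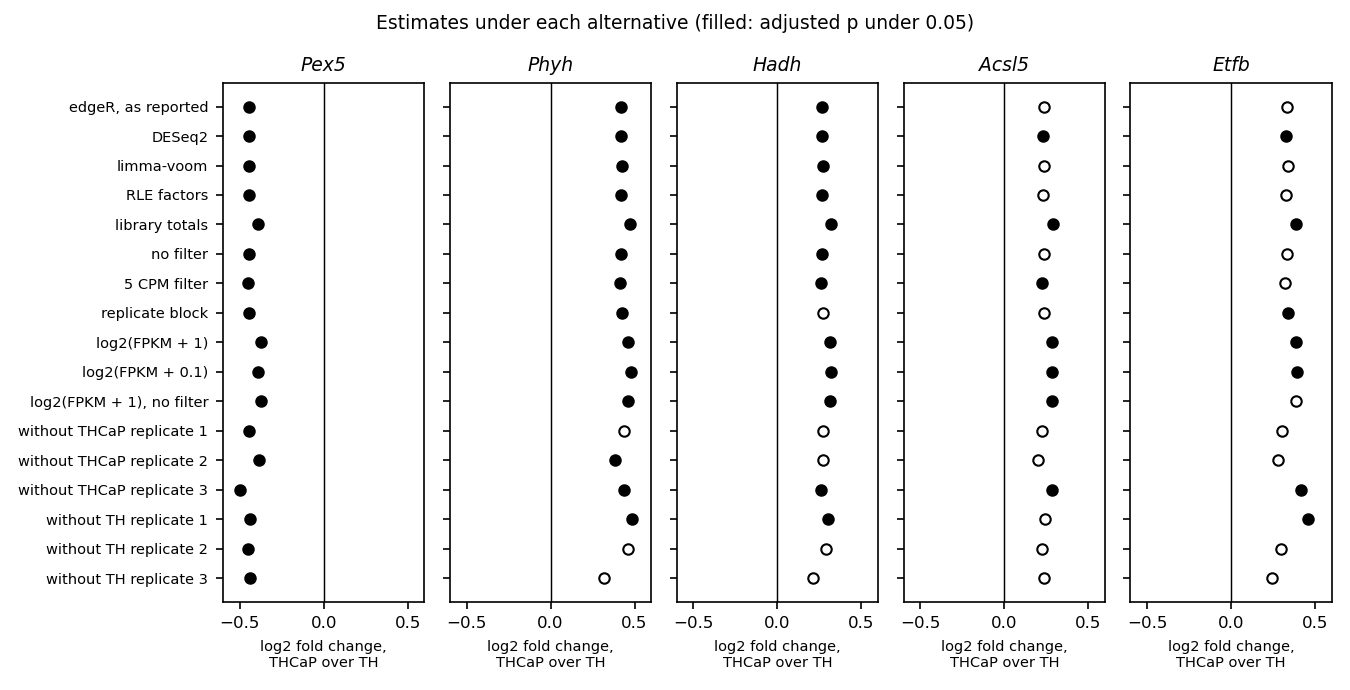
Log2 fold change, THCaP over TH (x axis), of Pex5, Phyh, Hadh, Acsl5 and Etfb as reported and under each of 16 alternatives (rows), filled where the adjusted p was under 0.05. All marks of Pex5 are filled and lie between -0.50 and -0.37, whereas the other genes keep their direction and gain or lose the call.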

How the data were processed

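Per the submitters' processing notes, reads were processed with fastp, HISAT2 and HTSeq on mm10. Their versions, the annotation and the strand setting are unstated there. The deposited counts are whole reads per gene symbol, not normalised. The authors' deposited FPKM derive from the same counts: the implied gene length was whole within 0.01 bases for 100% of the 11923 genes that reached 10 counts in some library.

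The main test was run in edgeR 4.0.16 under R 4.3.3 (filterByExpr with minimum count 10 and minimum total 15, TMM factors, robust quasi-likelihood F test, no covariate, all 6 libraries), with Benjamini-Hochberg adjustment over 11480 genes and a threshold of 0.05. The steps were tested on simulated data. The SE was obtained as the size of the log2 fold change over the root of F, and 95% intervals use the test's degrees of freedom. CPM are TMM-scaled, except those of marker genes, which use library totals. A count of 0 allows up to 3 counts, at most 0.107 CPM here, for counting error only. A single value compared over 3 and 3 libraries can reach an exact permutation p of 0.1 at best. No 2 libraries of a surface were as alike as counting noise alone would make them (chi-square per degree of freedom 3.84 to 48.4).

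The members and lists were chosen with earlier results of these data known. Every member is accounted for; from each other list up to 6 called genes with at least 5 CPM and the largest change are named, and some of these are not reported here. Positions, exon overlaps and the bounds of the gap between Hadha and Hadhb came from GENCODE vM21 (GRCm38, the assembly of mm10). Promoter sequences came from RefSeq on GRCm38.p6, and CCAAT and GGGCGG were added after the data were seen. The protein comparisons that had been planned were not made. Alternatives were DESeq2 1.42.0, limma-voom (limma 3.58.1), RLE factors, library totals, no filter, a filter of 5 CPM in 3 libraries, a block for the replicate number, limma on log2(FPKM + 1) and log2(FPKM + 0.1) where mean FPKM reached 1, log2(FPKM + 1) without that filter, and each library left out.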

Additional observations from a re-analysis of the deposited data

How the results depend on the processing

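Of the 39 tested members 34 kept the direction of their log2 fold change under all 16 alternatives. The 5 that did not lay near 0. Acadm, Echs1 and Eci2 turned positive with library totals (0.039, 0.025 and 0.031), with log2(FPKM + 1), filtered or not (0.042, 0.029 and 0.028), and with log2(FPKM + 0.1) (0.043, 0.030 and 0.030). Leaving out single libraries gave -0.070 to 0.063 for Acadm, -0.072 to 0.057 for Echs1, -0.022 to 0.055 for Eci1, -0.077 to 0.024 for Eci2 and -0.076 to 0.11 for Acaa2.

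The members called higher numbered 4 with DESeq2 (2 lower) and 8 with library totals, log2(FPKM + 1) or log2(FPKM + 0.1), and 0 to 4 without single libraries (1 to 3 lower). The share of members called was 15.4% with DESeq2, beside 29.6% of all tested genes, and 23.1% with library totals and with either filtered FPKM, beside 25.8%, 27.2% for log2(FPKM + 1) and 27.0% for log2(FPKM + 0.1). Their median log2 fold change was 0.12 with library totals, 0.12 with log2(FPKM + 1), filtered or not, and 0.13 with log2(FPKM + 0.1), where the median of all tested genes was 0.059, 0.059, 0.0060 (unfiltered) and 0.064. It was 0.057 to 0.094 without single libraries. Over all tested genes, unfiltered log2(FPKM + 1) called 766 higher and 528 lower, and the omissions 291 to 2145 higher and 465 to 2020 lower.

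In the other lists, unfiltered log2(FPKM + 1) called 4 higher and 0 lower for oxidation, 2 and 1 for peroxisome genes, and 1 lower for PPAR genes. Filtered log2(FPKM + 1) called 8 peroxisome genes higher, and the 5 CPM filter called 1 PPAR gene higher. The omissions gave 0 to 10 higher and 0 to 3 lower for oxidation, 0 to 5 and 1 to 5 for peroxisome genes, and 1 to 5 and 1 to 6 for PPAR genes. The causes were not tested. Between surfaces, deviations of libraries with the same number correlated at -0.020, -0.072 and 0.060 for numbers 1, 2 and 3. Those of libraries with unlike numbers correlated at -0.093 to 0.101. So few libraries cannot settle whether the numbers pair them. With the replicate number as a block 2 members were higher and 1 lower: Hadh lost its call and Etfb gained one.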
